A study of Homo sapiens with 9 samples.

Results

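Retinoids are vitamin A and its derivatives, and a cell turns retinol into the hormone-like ligand retinoic acid in a pair of oxidation steps. Retinol dehydrogenases such as RDH10 make retinal, retinal reductases such as DHRS3 return it to retinol, and retinal dehydrogenases of the ALDH1A family oxidise it to retinoic acid. CRABP2 carries retinoic acid to the nucleus, where the retinoic acid receptors RARA, RARB and RARG bind DNA as partners of the retinoid X receptors, and enzymes of the CYP26 family break the ligand down. In stratified and glandular epithelia retinoic acid is known for restraining squamous differentiation, and RARB, CYP26A1, DHRS3 and CRABP2 are known as genes that retinoic acid itself can induce.

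The 10 genes described here are ALDH1A1, ALDH1A3, RDH10, DHRS3, DHRS9, CRABP2, CYP26B1, RARA, RARB and RARG. The list holds retinoid enzymes, a binding protein and receptors, and was chosen by name with earlier results of these data known. Its genes were matched to the Ensembl gene IDs of the deposited tables. They are 10 of 41857 gene IDs. Poly(A) RNA was sequenced from the human cell line MCF10A, an immortal but non-tumorigenic line of mammary epithelium whose genotype is labelled WT. The 3 groups of 3 libraries carried vector only, human deltaNp63alpha or human deltaNp63beta, isoforms of the transcription factor p63 that lack the N-terminal activation domain and have different C-terminal ends. Doxycycline was given to every culture, the vector cells too, at 500 ng/mL for 24 h, and no culture without doxycycline was analysed here. The medium is described with horse serum, epidermal growth factor, hydrocortisone, cholera toxin and insulin, no retinoid is named among the supplements, and retinoids were not measured. The labels do not say how the constructs were delivered or whether a line is 1 clone, and the replicates are called biological triplicates.

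Values are the authors' normalized estimated counts per gene. A log2 fold change is the limma estimate ± SE on the log2(value + 1) scale, and a gene was called changed at a Benjamini-Hochberg adjusted p under 0.05 over the 15108 genes that reached 10 in 3 or more libraries. Library totals lay between 22.5 M and 23.2 M (mega, as sums of normalized values), and between 19572 and 20658 genes were above 0. TP63 averaged 302 ± 38.0 in vector libraries, 6123 ± 1470 with deltaNp63alpha and 5257 ± 1312 with deltaNp63beta (mean ± SD, n = 3 each), which separates the vector libraries from both isoforms but not the isoforms from each other. All 6 mammary basal and all 5 epithelial markers had group means of at least 10. The summed basal markers (KRT5, KRT14, KRT17, CDH3, ITGA6 and LAMA3) ranged from 101163 to 105096 in vector libraries, from 180130 to 184524 with deltaNp63alpha and from 287087 to 301354 with deltaNp63beta, and the 5 epithelial markers from 13076 to 13373, from 13385 to 14470 and from 20492 to 22387. Among markers of other cell types, the fibroblast sum was 1451 to 1497, 524 to 663 and 512 to 548, with 2, 3 and 3 of 6 group means at 10 or more, and the leukocyte sum was 1734 to 1932, 1146 to 1457 and 1188 to 1306, with 4 of 5 in each group. The endothelial sum was 169 to 230, 139 to 155 and 104 to 127, with 2 of 4. Within these lists genes moved in different directions. All 6 basal markers were called higher with each isoform, while between the isoforms 5 were higher and LAMA3 was lower with deltaNp63beta. LAMA3 averaged 25228, 46570 and 31214 in vector, deltaNp63alpha and deltaNp63beta libraries. Of the epithelial markers, 3 were higher and KRT8 was lower with deltaNp63alpha, and 4 were higher with deltaNp63beta. KRT8 averaged 5290, 4292 and 5418, and EPCAM 173, 311 and 1424. DCN, the largest part of the fibroblast sum in vector and deltaNp63alpha libraries, averaged 1210.5, 349.6 and 165.9 in vector, deltaNp63alpha and deltaNp63beta cells, and COL1A1, the largest part with deltaNp63beta, averaged 236, 203 and 340.1. Of the leukocyte markers, CD68 averaged 1110.5, 842 and 611 and ITGB2 543, 286 and 148, while CD14 averaged 23.6, 19.1 and 170.3 and LAPTM5 154, 181 and 299. COL3A1, the leukocyte gene PTPRC and the endothelial gene CDH5 each stayed at 4.22 or lower in every library. The part of these shifts in the retinoid results was not tested, and in bulk RNA fewer cells of a type and less RNA per cell cannot be told apart.

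With both isoforms the RNA of ALDH1A3, DHRS3 and CRABP2 was higher than in vector cells, and that of DHRS9 was lower. With deltaNp63beta, RARA, CYP26B1 and ALDH1A1 were called lower as well and RARG slightly higher. The calls of CYP26B1, ALDH1A1 and RARG were lost when certain single libraries were left out, and without a mean-variance trend. RARA was the 1 gene of the list called between the isoforms. DHRS3, ALDH1A1, ALDH1A3, CRABP2 and CYP26B1 were each called there in 1 fit that left out a library. Of the 10 genes, 9 passed the filter, each with a value of at least 10 in all 9 libraries, and RARB did not. With deltaNp63alpha 3 of the 9 rose and 1 fell, against 14.5% of all tested genes called, 8.13% higher and 6.37% lower. With deltaNp63beta 4 rose and 4 fell, against 41.3% called, 21.8% higher and 19.5% lower. Between the isoforms 0 were higher and 1 was lower with deltaNp63beta, against 32.9% called, 17.4% higher and 15.5% lower. The median log2 fold change of the 9 was 0.13, 0.26 and 0.04 in these comparisons, and that of all tested genes was -0.01, 0.00 and 0.00. The comparisons with vector share the 3 vector libraries. The list was chosen with earlier results of these data known, so its counts are no independent comparison with all tested genes.

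**Figure D1:**
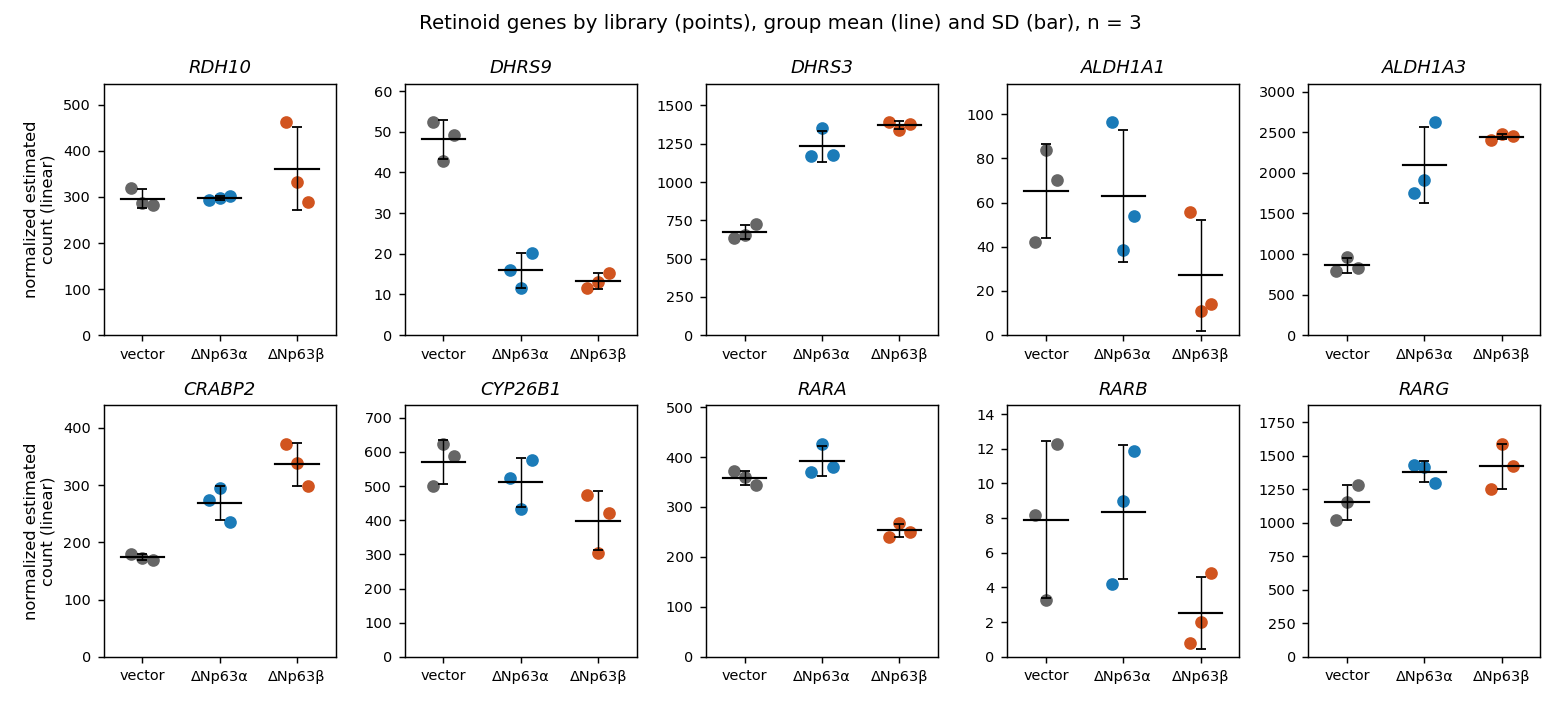
Normalized estimated count (linear axis from 0) of each of the 10 genes in each library, with 1 point per library and the group mean and SD (n = 3) as line and bar, for vector, deltaNp63alpha (ΔNp63α) and deltaNp63beta (ΔNp63β) cells. DHRS3, ALDH1A3 and CRABP2 lie above vector in all 6 isoform libraries, DHRS9 lies below it in all 6, and RARA lies below it in the 3 deltaNp63beta libraries.

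Among the enzymes that interconvert retinol and retinal, DHRS3 rose with both isoforms, DHRS9 fell with both, and RDH10 was not called. DHRS3 (ENSG00000162496, GRCh38 chromosome 1, 12567910 to 12617731, minus strand, protein coding) encodes the reductase that turns retinal back into retinol. Its values were 635.0, 655.0 and 722.7 in vector libraries 1 to 3, 1169.5, 1350.3 and 1178.5 with deltaNp63alpha, and 1392.2, 1340.9 and 1380.5 with deltaNp63beta. Every isoform library was above every vector library, and the isoform groups overlapped each other. The log2 fold change was 0.88 ± 0.07 with deltaNp63alpha (adjusted p = 1.36e-05, limma), which is 1.84-fold, and 1.03 ± 0.07 with deltaNp63beta (adjusted p = 8.82e-07, limma), which is 2.05-fold. Between the isoforms it was 0.16 ± 0.07 with a 95% interval of -0.01 to 0.32 (adjusted p = 0.132, limma), and without the second deltaNp63alpha library it was called at 0.22 (adjusted p = 0.0464, limma).

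DHRS9 (ENSG00000073737, chromosome 2, 169064789 to 169096167, plus strand, protein coding) encodes a short-chain dehydrogenase that can oxidise retinol. Its values were 52.4, 42.9 and 49.1 in vector libraries, 16.0, 11.6 and 20.1 with deltaNp63alpha, and 11.5, 13.1 and 15.3 with deltaNp63beta. The lowest vector library stood above the highest isoform library. The log2 fold change was -1.57 ± 0.32 with deltaNp63alpha (adjusted p = 0.00645, limma), which is 2.96-fold lower, and -1.78 ± 0.32 with deltaNp63beta (adjusted p = 0.000891, limma), which is 3.44-fold lower. Between the isoforms the difference was -0.22 ± 0.32, with a 95% interval of -0.91 to 0.48 (adjusted p = 0.641, limma).

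Of the 9 genes with a promoter window in the RefSeq table, all but RDH10, DHRS9 was the only one with a p53 family decamer, the ten-letter motif shared by p53, p63 and p73. A window runs from 250 bases before to 50 bases after a start site on GRCh38.p14, and the 9 genes had 19 windows. The decamer was searched as a single copy, not as a pair, on both strands and stood in 6.63% of all 35116 windows. In DHRS9 it lay 24 to 33 bases after 1 of the annotated starts, at chr2:169067101-169067110. The same window held TATAAA at 32 to 27 bases before the start, at chr2:169067045-169067050, and also at 114 to 109 bases before it. That motif was found in 11.5% of windows on either strand, among them other DHRS9 windows and that of CYP26B1. The decamer and the TATAAA nearer the start are shown because DHRS9 fell with both isoforms, on the plus strand and with the motif in capitals.
DHRS9, p53 family decamer: tcgttcagagAAACATGTTCcactgagaat
DHRS9, TATA box: aggaagaaaaTATAAAgtacactttt
A match is a description of these letters, and binding was not measured.

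RDH10 (ENSG00000121039, chromosome 8, 73294612 to 73325281, plus strand, protein coding) encodes the retinol dehydrogenase of the first oxidation step. Its values were 320.5, 286.8 and 281.9 in vector libraries, 292.7, 297.1 and 303.1 with deltaNp63alpha, and 462.8, 331.7 and 290.1 with deltaNp63beta. The deltaNp63alpha libraries lay within the vector range, and the first deltaNp63beta library stood above all others. RDH10 differed from vector by 0.01 ± 0.15 with deltaNp63alpha, with a 95% interval of -0.32 to 0.34 (adjusted p = 0.981, limma), and 0.26 ± 0.15 with deltaNp63beta, with an interval of -0.07 to 0.59 (adjusted p = 0.194, limma). Without the third deltaNp63beta library the latter was 0.40 (adjusted p = 0.0468, limma), and between the isoforms it was 0.25 ± 0.15 (adjusted p = 0.228, limma). RDH10 overlaps the ribosomal protein gene RPL7 on the opposite strand, whose value was also highest in the first deltaNp63beta library, at 33094 against 26944 and 28070 in the other deltaNp63beta libraries and 23181 to 24882 in the rest. The part of RPL7 reads in the RDH10 value was not tested.

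Of the retinal dehydrogenases, which make retinoic acid, ALDH1A3 rose with both isoforms, and the call of ALDH1A1 with deltaNp63beta depended on single libraries. ALDH1A3 (ENSG00000184254, chromosome 15, 100877714 to 100916626, plus strand, protein coding) had values of 788.3, 966.3 and 822.9 in vector libraries, of 1747.7, 1910.5 and 2627.6 with deltaNp63alpha, and of 2409.7, 2474.2 and 2454.2 with deltaNp63beta. All isoform libraries were above all vector libraries, and the third deltaNp63alpha library was the highest of the 9. The log2 fold change of 1.27 ± 0.13 with deltaNp63alpha (adjusted p = 5.1e-05, limma) is 2.41-fold, and that of 1.51 ± 0.13 with deltaNp63beta (adjusted p = 3.66e-06, limma) is 2.86-fold. Between the isoforms the difference was 0.25 ± 0.13, with a 95% interval of -0.04 to 0.53 (adjusted p = 0.17, limma), and without the third deltaNp63alpha library it was called at 0.42 (adjusted p = 0.00563, limma).

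ALDH1A1 (ENSG00000165092, chromosome 9, 72900662 to 73080442, minus strand, protein coding), the relative often used as a stem cell marker in mammary epithelium, was low and variable. Its values were 42.1, 83.7 and 70.1 in vector libraries, 96.5, 38.6 and 53.8 with deltaNp63alpha, and 55.8, 11.1 and 14.1 with deltaNp63beta. The deltaNp63beta libraries 2 and 3 were below all others, while the first lay within the vector range. ALDH1A1 differed from vector by -0.10 ± 0.55 with deltaNp63alpha, with a 95% interval of -1.30 to 1.10 (adjusted p = 0.938, limma), and -1.55 ± 0.55 with deltaNp63beta (adjusted p = 0.0412, limma). The deltaNp63beta call was lost without any 1 of 5 libraries, deltaNp63alpha 3, deltaNp63beta 2 or 3, or vector 2 or 3, at adjusted p between 0.0551 and 0.152. Between the isoforms the difference was -1.45 ± 0.55 (adjusted p = 0.0636, limma), and without the first deltaNp63beta library it was -2.14 (adjusted p = 0.00329, limma). RBP4, the secreted retinol carrier, had a like order of libraries, with 36.8, 93.3 and 103.2 in vector, 93.6, 50.7 and 57.6 with deltaNp63alpha and 57.2, 8.27 and 18.7 with deltaNp63beta.

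CRABP2 (ENSG00000143320, chromosome 1, 156699606 to 156705816, minus strand, protein coding), the carrier that hands retinoic acid to its receptors, rose with both isoforms. Its values were 179.8, 172.0 and 169.8 in vector libraries, 273.6, 295.5 and 236.0 with deltaNp63alpha, and 372.1, 338.9 and 297.5 with deltaNp63beta. The 3 groups did not overlap, with vector lowest and deltaNp63beta highest. It changed by a log2 fold of 0.62 ± 0.12 with deltaNp63alpha (adjusted p = 0.00583, limma), which is 1.53-fold, and 0.94 ± 0.12 with deltaNp63beta (adjusted p = 9.6e-05, limma), which is 1.92-fold. Between the isoforms it was 0.32 ± 0.12, with an unadjusted 95% interval of 0.06 to 0.59, and was not called (adjusted p = 0.0636, limma). Without the third deltaNp63beta library it was 0.41 (adjusted p = 0.0378, limma).

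The 100 bases before 1 annotated start each of ALDH1A3 and CRABP2 are printed because these genes rose with both isoforms. The ALDH1A3 stretch is chr15:100879731-100879830 on the plus strand, and the CRABP2 stretch is chr1:156705785-156705884 on the minus strand. Capitals mark CCAAT, a general promoter motif found on either strand in 34.6% of the windows.
ALDH1A3: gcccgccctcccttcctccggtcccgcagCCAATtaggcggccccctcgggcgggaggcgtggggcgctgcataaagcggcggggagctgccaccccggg
CRABP2: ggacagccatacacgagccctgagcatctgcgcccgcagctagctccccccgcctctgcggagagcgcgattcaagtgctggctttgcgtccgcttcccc
Both are rich in G and C, at 77.0% and 67.0% of their bases, and neither window held the p53 family decamer or a retinoic acid response element of the forms searched. Those forms were a direct repeat of the unit NGNTCA, with A or G at the first and G or T at the third base, and a spacer of 5 bases (DR5, in 0.0883% of windows), 2 bases (DR2, 0.0399%) or 1 base (DR1, 0.131%), on both strands.

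CYP26B1 (ENSG00000003137, chromosome 2, 72129238 to 72148038, minus strand, protein coding) encodes the enzyme that breaks down retinoic acid in many peripheral tissues. Its values were 499.7, 624.1 and 588.6 in vector libraries, 523.3, 433.9 and 576.5 with deltaNp63alpha, and 473.2, 304.7 and 420.1 with deltaNp63beta. The deltaNp63beta libraries were all below the vector libraries, and the deltaNp63alpha libraries overlapped both. CYP26B1 differed from vector by -0.16 ± 0.16 with deltaNp63alpha, with a 95% interval of -0.52 to 0.19 (adjusted p = 0.581, limma), and -0.53 ± 0.16 with deltaNp63beta (adjusted p = 0.0213, limma), which is 1.45-fold lower. The deltaNp63beta call was lost without deltaNp63beta 2, where the value was -0.35 (adjusted p = 0.076, limma), and without vector 2 or 3 (adjusted p = 0.0753 and 0.0615, limma). The isoforms differed by -0.37 ± 0.16 (adjusted p = 0.106, limma), and without the first deltaNp63beta library by -0.50 (adjusted p = 0.0412, limma). CYP26A1, the family member known for its strong induction by retinoic acid, stayed between 0.42 and 8.18 in the 9 libraries and was not tested, and CYP26C1 was listed at 0 in all 9.

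RARA (ENSG00000131759, chromosome 17, 40309192 to 40357643, plus strand, protein coding), a broadly expressed retinoic acid receptor, fell with deltaNp63beta and not with deltaNp63alpha. Its values were 371.3, 360.4 and 343.6 in vector libraries, 370.7, 426.6 and 379.5 with deltaNp63alpha, and 240.8, 267.6 and 250.4 with deltaNp63beta. The deltaNp63beta libraries were below the 6 others, which overlapped. The log2 fold change was 0.13 ± 0.10 with deltaNp63alpha, with a 95% interval of -0.08 to 0.34 (adjusted p = 0.44, limma), and -0.50 ± 0.10 with deltaNp63beta (adjusted p = 0.00142, limma). The test of the isoforms against each other gave -0.63 ± 0.10 (adjusted p = 0.000455, limma), which is 1.55-fold lower with deltaNp63beta.

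RARG (ENSG00000172819, chromosome 12, 53210567 to 53232980, minus strand, protein coding) is the receptor best known from epidermis. Its values were 1023.0, 1154.5 and 1280.7 in vector libraries, 1432.1, 1419.7 and 1294.3 with deltaNp63alpha, and 1255.4, 1590.4 and 1423.4 with deltaNp63beta. The deltaNp63alpha libraries were all above vector, and the deltaNp63beta libraries overlapped it. RARG differed from vector by 0.27 ± 0.10 with deltaNp63alpha and was not called (adjusted p = 0.103, limma), and 0.30 ± 0.10 with deltaNp63beta, which was called (adjusted p = 0.0288, limma). That call was lost without any 1 of 4 libraries, deltaNp63beta 2 or 3 or vector 1 or 2, at adjusted p between 0.0621 and 0.117, and between the isoforms the value was 0.04 ± 0.10 with a 95% interval of -0.18 to 0.25 (adjusted p = 0.808, limma).

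RARB (ENSG00000077092, chromosome 3, 25174332 to 25597932, plus strand, protein coding), the receptor gene known as a direct retinoic acid target, was close to the lower limit of the tables. Its values were 8.2, 3.3 and 12.3 in vector libraries, 4.2, 9.0 and 11.8 with deltaNp63alpha, and 0.8, 2.0 and 4.8 with deltaNp63beta. It reached 10 in 2 libraries, 1 short of the filter, so it was not tested, and the groups overlapped. It shares part of its locus with TOP2B on the opposite strand, which lay between 5448 and 6080 in the 9 libraries. Among the 19 promoter windows, that of RARB was the only one with a DR5 element, at 53 to 37 bases before an annotated start, and the window of CYP26A1 held one at 90 to 74 bases before the start. They are shown because these low genes are textbook retinoic acid targets, with capitals on the repeat and its spacer, and the CYP26A1 repeat reads in the reverse direction. RARB lies at chr3:25428210-25428226 and CYP26A1 at chr10:93073803-93073819, both on the plus strand.
RARB, DR5: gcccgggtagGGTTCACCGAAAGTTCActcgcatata
CYP26A1, DR5: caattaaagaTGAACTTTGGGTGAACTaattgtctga
No binding or ligand was measured, and a window without a match says nothing about a receptor.

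**Figure D2:**
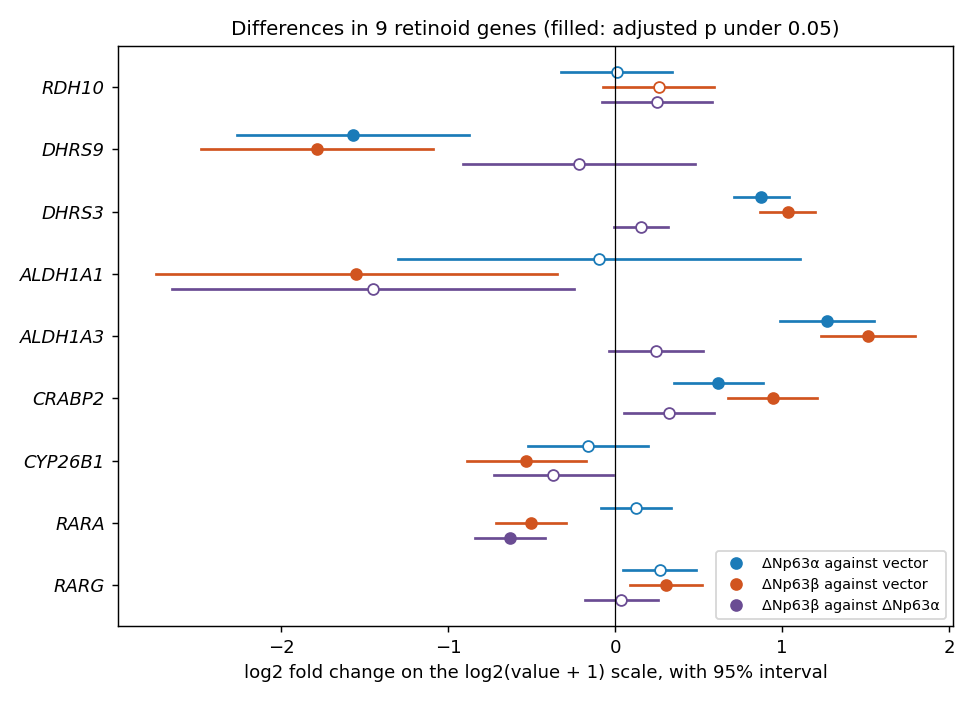
Log2 fold change (point) and unadjusted 95% interval (line) of the 9 tested genes for deltaNp63alpha against vector, deltaNp63beta against vector and deltaNp63beta against deltaNp63alpha, with filled points at an adjusted p under 0.05. ALDH1A3 has the highest and DHRS9 the lowest estimate against vector for both isoforms, and RARA is the only gene filled between the isoforms.

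Groups that did not overlap with vector numbered 5 of the 9 genes with deltaNp63alpha (33.5% of all tested genes) and 6 of the 9 with deltaNp63beta (50.6%), and 2 of 9 between the isoforms (44.8%). With deltaNp63alpha these were DHRS3, ALDH1A3, CRABP2 and RARG above (16.7% of all tested genes) and DHRS9 below (16.8%). With deltaNp63beta they were DHRS3, ALDH1A3 and CRABP2 above (26.2%) and DHRS9, CYP26B1 and RARA below (24.4%). With deltaNp63beta against deltaNp63alpha, CRABP2 was above (22.9%) and RARA below (21.9%).

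Levels were compared between genes per kilobase of merged annotated exon, and again per kilobase of the longest annotated transcript. In vector libraries DHRS3 stood highest at 390 ± 26.7 (mean ± SD, n = 3), followed by RARG at 336 ± 37.6, and these overlapped. ALDH1A3 at 158 ± 17.4 and CRABP2 at 158 ± 4.76 came next and did not differ beyond their spread, followed by CYP26B1 at 119 ± 13.3, RARA at 86.1 ± 3.36 and RDH10 at 71.8 ± 5.09. ALDH1A1 at 31.0 ± 10.1, DHRS9 at 12.8 ± 1.28 and RARB at 2.46 ± 1.40 were lowest. With deltaNp63beta the levels per kilobase were 796 for DHRS3, 451 for ALDH1A3, 415 for RARG and 306 for CRABP2, and ALDH1A3 and RARG overlapped. The choice of length moved some neighbours. Per kilobase of the longest transcript the vector means of DHRS3 and RARG were both 390, ALDH1A3 at 219 stood above CRABP2 at 168, and RARA at 118 lay beside CYP26B1 at 121, while with deltaNp63beta ALDH1A3 was at 623 and RARG at 481. Per kilobase of merged exon the receptors kept the order RARG, RARA, RARB in all 3 groups, at 336, 86.1 and 2.46 in vector, 403, 94.2 and 2.59 with deltaNp63alpha and 415, 60.8 and 0.79 with deltaNp63beta, and the order was the same per kilobase of the longest transcript.

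**Figure D3:**
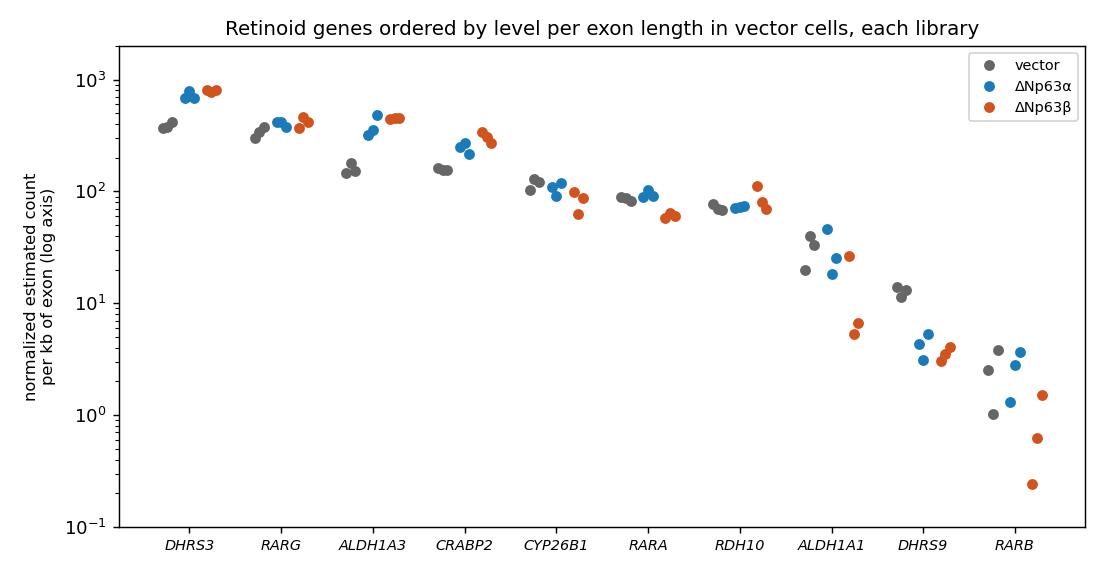
Normalized estimated count per kilobase of merged exon (log axis) of the 10 genes in each library, ordered by their mean in vector cells, with 1 point per library. DHRS3, RARG, ALDH1A3 and CRABP2 hold the upper end in the vector, deltaNp63alpha and deltaNp63beta groups, and RARB the lower end.

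The remaining retinoid genes were read from 4 lists, against the shares of all tested genes called, which were 8.13% higher and 6.37% lower with deltaNp63alpha, 21.8% and 19.5% with deltaNp63beta, and 17.4% and 15.5% between the isoforms. Of 17 genes for uptake, storage and binding, 9 were tested, and 2 rose and 0 fell with deltaNp63alpha, 4 rose and 1 fell with deltaNp63beta, and 3 were higher and 1 lower with deltaNp63beta than with deltaNp63alpha. Their median log2 fold changes were 0.07, 0.57 and 0.38, beside -0.01, 0.00 and 0.00 over all tested genes. LRAT, which esterifies retinol for storage, averaged 74.4 ± 11.2 in vector, 83.7 ± 16.9 with deltaNp63alpha and 145 ± 12.1 with deltaNp63beta, a log2 fold change of 0.96 ± 0.19 with deltaNp63beta (adjusted p = 0.002, limma) and of 0.80 ± 0.19 between the isoforms (adjusted p = 0.00789, limma). FABP5, a fatty acid carrier that can also bind retinoic acid, rose with deltaNp63beta by 0.75 ± 0.08 (adjusted p = 1.78e-05, limma). SCARB1, a lipoprotein and carotenoid receptor, rose by 0.57 ± 0.05 with deltaNp63beta (adjusted p = 4.48e-06, limma), and its call of 0.18 ± 0.05 with deltaNp63alpha (adjusted p = 0.029, limma) was lost without any 1 of deltaNp63alpha 1, 2 or 3 or vector 2 or 3. RETSAT, the retinol saturase, rose by 0.33 ± 0.06 with deltaNp63alpha (adjusted p = 0.0036, limma) and was lower with deltaNp63beta than with deltaNp63alpha by -0.22 ± 0.06 (adjusted p = 0.0154, limma), a call lost without deltaNp63alpha 2 (adjusted p = 0.0648, limma). The fall of RBP4 with deltaNp63beta, -1.71 ± 0.60 (adjusted p = 0.0402, limma), was lost without any 1 of deltaNp63alpha 2 or 3, deltaNp63beta 2 or 3 or vector 2 or 3, at adjusted p up to 0.149. Without deltaNp63beta 1 the lower genes between the isoforms numbered 2.

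Of 23 other retinoid oxidoreductases and CYP26 enzymes, 14 were tested, and 1 rose and 3 fell with deltaNp63alpha, 5 rose and 1 fell with deltaNp63beta, and 7 were higher and 0 lower with deltaNp63beta than with deltaNp63alpha. The shares of all tested genes called were 8.13% and 6.37%, 21.8% and 19.5%, and 17.4% and 15.5%. Leaving out 1 library at a time gave 4 to 6 genes higher between the isoforms in place of 7, with 4 without deltaNp63beta 2. The medians were -0.11, 0.18 and 0.29. AKR1B10, an aldo-keto reductase that reduces retinal, was 9.21, 13.9 and 10.2 in vector, 7.98, 10.2 and 12.4 with deltaNp63alpha and 401, 252 and 313 with deltaNp63beta. Only the deltaNp63beta libraries stood apart, by 4.73 ± 0.29 against vector (adjusted p = 2.33e-07, limma) and 4.85 ± 0.29 against deltaNp63alpha (adjusted p = 4.08e-07, limma), and its relative AKR1B15 lay between 9.42 and 21.0 in all 9 libraries. AKR1C3, another reductase that accepts retinal, moved in opposite directions, -0.57 ± 0.08 with deltaNp63alpha (adjusted p = 0.000585, limma) and 0.65 ± 0.08 with deltaNp63beta (adjusted p = 5.62e-05, limma), and the isoforms differed by 1.22 ± 0.08 (adjusted p = 7.89e-07, limma). Its relatives AKR1C1 and AKR1C2, which resemble each other more closely, lay between 1586 and 1869 and between 1233 and 1529 in vector, between 1448 and 1698 and between 603 and 671 with deltaNp63alpha, and between 3738 and 3895 and between 2161 and 2226 with deltaNp63beta. How reads were shared among these genes is not given in the sources used here. AKR1B1 fell with deltaNp63alpha by 0.53 on the log2 scale (adjusted p = 1.77e-05, limma), and ADH5 rose with both isoforms, by 0.22 ± 0.05 (adjusted p = 0.00994, limma) and 0.51 ± 0.05 (adjusted p = 9.61e-06, limma), although the deltaNp63alpha call was lost without a mean-variance trend (adjusted p = 0.0516, limma). SDR16C5, an epithelial retinol dehydrogenase, rose with deltaNp63beta by 1.01 ± 0.22 (adjusted p = 0.00341, limma), and its difference between the isoforms of 0.70 ± 0.22 (adjusted p = 0.0317, limma) was lost without any 1 of deltaNp63alpha 1, 2 or 3 or deltaNp63beta 2 or 3. ADH1B was 10.6, 17.0 and 10.4 in vector and between 0.00 and 3.40 with the isoforms. It reached 10 only in the 3 vector libraries and so passed the filter through the group where it was high. Its calls are therefore not read as a result, and without it 2 genes of the list fell with deltaNp63alpha and 0 with deltaNp63beta. Both calls were also lost at a pseudocount of 0.1 (adjusted p = 0.135 and 0.1, limma).

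Of 17 retinoid X receptors, other receptors such as PPARD and NR2F1, and receptor coregulators, 16 were tested. With deltaNp63alpha 1 rose and 4 fell, and with deltaNp63beta 0 rose and 6 fell. Between the isoforms 2 were higher and 4 lower with deltaNp63beta than with deltaNp63alpha. The 1 rise with deltaNp63alpha was PPARD, which was also among the 6 falls with deltaNp63beta. The shares of all tested genes called were 8.13% and 6.37%, 21.8% and 19.5%, and 17.4% and 15.5%. Without vector 1 the falls with deltaNp63alpha numbered 2, and without any 1 of the deltaNp63alpha or deltaNp63beta libraries 1 gene was higher between the isoforms. Without deltaNp63alpha 2 the rises with deltaNp63alpha numbered 2. The medians were -0.12, -0.14 and -0.11. RXRA and RXRB, the partners of the retinoic acid receptors, were not called, with log2 fold changes of 0.05 ± 0.05 and -0.12 ± 0.14 with deltaNp63alpha and -0.08 ± 0.05 and -0.20 ± 0.14 with deltaNp63beta, and RXRG stayed at 3.75 or lower. NR2F1, an orphan receptor that competes for retinoid elements, changed by -1.16 ± 0.23 with deltaNp63beta (adjusted p = 0.00172, limma), and NCOA1, a coactivator, by -0.42 ± 0.09 (adjusted p = 0.00304, limma). NR2F1 was also lower with deltaNp63beta than with deltaNp63alpha, by -0.85 ± 0.23 (adjusted p = 0.0136, limma), which was lost without deltaNp63alpha 1 (adjusted p = 0.0535, limma). The coactivator subunit MED1 fell with both isoforms, by -0.31 ± 0.06 (adjusted p = 0.00479, limma) and -0.48 ± 0.06 (adjusted p = 7.15e-05, limma).

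Among the other coregulators, NCOA3 fell with deltaNp63alpha by -0.29 ± 0.05 (adjusted p = 0.0035, limma) and was higher with deltaNp63beta than with deltaNp63alpha by 0.26 ± 0.05 (adjusted p = 0.0026, limma). NRIP1, a ligand-dependent corepressor, was lower with deltaNp63beta than with deltaNp63alpha by -0.36 ± 0.09 (adjusted p = 0.00786, limma). The acetyltransferase gene CREBBP changed by -0.52 ± 0.13 with deltaNp63alpha (adjusted p = 0.0224, limma), lost without deltaNp63alpha 1 or 2 or vector 1, and by -0.55 ± 0.13 with deltaNp63beta (adjusted p = 0.00602, limma). PPARD, a receptor that can take retinoic acid from FABP5, rose by 0.62 ± 0.08 with deltaNp63alpha (adjusted p = 0.000284, limma), and the isoforms differed by -0.85 ± 0.08 (adjusted p = 1.27e-05, limma). Its value of -0.23 ± 0.08 with deltaNp63beta (adjusted p = 0.0358, limma) was lost without any 1 of the deltaNp63beta or vector libraries.

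Of 18 genes known to respond to retinoic acid, 14 were tested, and 2 rose and 2 fell with deltaNp63alpha, 2 rose and 3 fell with deltaNp63beta, and 3 were higher and 4 lower with deltaNp63beta than with deltaNp63alpha. The shares of all tested genes called were 8.13% and 6.37%, 21.8% and 19.5%, and 17.4% and 15.5%, so that the list lay near the background with deltaNp63beta. Without any 1 of the deltaNp63alpha or vector libraries 1 gene rose with deltaNp63alpha. RARRES1, named after its values were seen, is among the 3 higher between the isoforms and reached 10 only in the 3 deltaNp63beta libraries. It thus passed the filter through the group where it was high. Its call is therefore not read as a result, which leaves LAMB1 and THBD as the higher genes. The medians were -0.11, -0.03 and -0.11. TGM2, tissue transglutaminase and a long-known retinoic acid target, was 2053, 1877 and 1859.7 in vector, 1282, 1495 and 1308 with deltaNp63alpha and 601, 780 and 704 with deltaNp63beta. The 3 groups did not overlap, and it fell by 0.50 on the log2 scale with deltaNp63alpha (adjusted p = 0.00443, limma), by 1.48 with deltaNp63beta (adjusted p = 3.73e-07, limma) and by 0.97 between them (adjusted p = 1.93e-05, limma). LAMB1, a laminin chain gene with a retinoic acid element, rose with deltaNp63beta by 0.95 ± 0.04 (adjusted p = 2.35e-08, limma) and changed by -0.12 ± 0.04 with deltaNp63alpha (adjusted p = 0.0935, limma). RAI14 rose with deltaNp63alpha by 0.31 ± 0.06 (adjusted p = 0.00503, limma), and HOXA5 fell with deltaNp63beta by 0.33 on the log2 scale (adjusted p = 0.0101, limma). THBD, the thrombomodulin gene, was higher with deltaNp63beta than with deltaNp63alpha by 0.64 ± 0.06 (adjusted p = 2.17e-05, limma). It was called in opposite directions against vector, at -0.22 ± 0.06 with deltaNp63alpha (adjusted p = 0.0411, limma) and 0.42 ± 0.06 with deltaNp63beta (adjusted p = 0.000299, limma), but the deltaNp63alpha call was lost without any 1 of deltaNp63alpha 1 or 3, deltaNp63beta 2 or vector 1, 2 or 3.

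**Figure D4:**
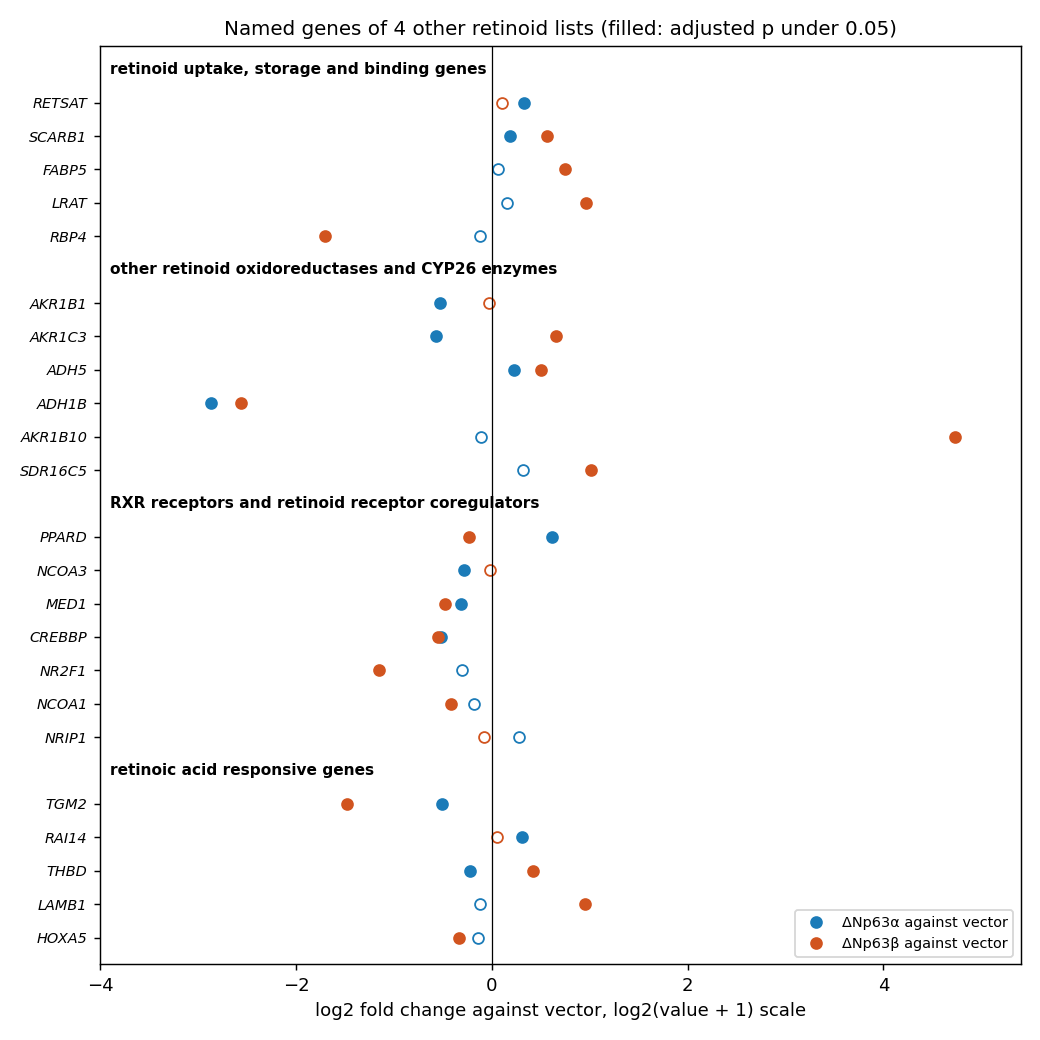
Log2 fold change against vector on the log2(value + 1) scale of named genes of the 4 other retinoid lists, for deltaNp63alpha and deltaNp63beta, with filled points at an adjusted p under 0.05. AKR1B10 lies farthest to the right with deltaNp63beta at 4.73, and AKR1C3, PPARD and THBD have filled points on both sides of 0. ADH1B, which reached 10 only in vector libraries, lies farthest to the left.

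For the 3 genes of the 10 with the smallest F test p over the groups, the tested genes most like them were found by Pearson's r of log2(value + 1) over the 9 libraries. DHRS3 was followed most closely by GNA15 (r = 0.993), SFN (0.993) and SERINC2 (0.992). ALDH1A3 was followed by KREMEN1 (0.995), BCAS4 (0.991) and CTSC (0.985), and CRABP2 by EMB (0.980), TSPAN18 (0.978) and ID1 (0.975). GNA15 was between 1376 and 1435 in vector libraries, between 2717 and 3176 with deltaNp63alpha and between 3414 and 3688 with deltaNp63beta. The 9 libraries fall into 3 groups, so r is given as a description of level across groups.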

How the data were processed

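Poly(A) RNA of 9 MCF10A cultures (3 vector only, 3 deltaNp63alpha, 3 deltaNp63beta) was analysed. The deposited signal values are normalized estimated counts per Ensembl gene, for which the submitters' processing notes name kallisto 0.46.2, GRCh38 and DESeq2 (version not given) but not the step that gave the numbers. Whole reads could not be recovered: low values lay on a step of 0.9232 to 1.1101 per library and 59.9% to 63.5% of them were whole multiples within 0.1 step, which put the depth at 20.3 to 24.4 M (mega) estimated fragments. No counting interval was computed.

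From these values limma 3.58.1 in R 4.3.3 was run on log2(value + 1) with a mean-variance trend and robust moderation, in 1 fit of all 9 libraries without a block, for genes reaching 10 in 3 or more libraries. Calls needed an adjusted p under 0.05. Fold changes of low genes are understated because of the pseudocount. Tables and plots were made in Python 3.11.15 with matplotlib 3.10.9, pandas 2.3.3 and numpy 2.4.6, and the fit was tested on simulated data.

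The text names all 10 genes, TP63, up to 4 called genes per list and comparison by smallest adjusted p, genes called in opposite directions with the isoforms, and the 3 genes most like each of 3 members. Some genes that this rule picks are not reported here. All other names (RDH10's and RARB's neighbours, AKR1B15, AKR1C1, AKR1C2, CYP26A1, CYP26C1, RXRA, RXRB, RXRG, the markers) are context. The genes and lists were chosen with earlier results of these data known. All 111 list genes matched an ID. Positions are from GENCODE release 29. Of the 10 genes, 7 overlap another gene, 3 of them on the same strand, and the counting is not given in the sources used here. Promoter sequences are from RefSeq on GRCh38.p14. Alternatives were other pseudocounts, filters, scalings, a replicate block, no trend, only the groups compared and leaving out each library.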

Additional observations from a re-analysis of the deposited data

How the results depend on the processing

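Leaving out each library in turn gave these ranges. Genes called with deltaNp63alpha were 920 to 1239 higher and 640 to 1022 lower. Of the 10 genes, 3 to 4 were called higher and 2 to 4 lower with deltaNp63beta, and 0 to 1 higher and 1 to 3 lower between the isoforms. The log2 fold changes ranged with deltaNp63alpha from -0.027 to 0.066 for RDH10 and from -0.45 to 0.20 for ALDH1A1, and both changed sign. With deltaNp63beta they ranged from 0.068 to 0.40 for RDH10, from -2.24 to -1.12 for ALDH1A1, from -0.67 to -0.35 for CYP26B1 and from 0.22 to 0.39 for RARG. Between the isoforms they ranged from 0.12 to 0.22 for DHRS3, -2.14 to -1.03 for ALDH1A1, 0.13 to 0.42 for ALDH1A3, 0.23 to 0.41 for CRABP2, -0.50 to -0.19 for CYP26B1 and -0.047 to 0.12 for RARG. Under the other settings, RDH10 with deltaNp63alpha was -0.01 with equal totals. With a mean of at least 50 the 1 fall with deltaNp63alpha became 0, since DHRS9 was not tested there. ALDH1A1 with deltaNp63beta was not called without a filter (-1.55, adjusted p = 0.0609, limma), with quantile normalization (-1.38, adjusted p = 0.0541), without a trend (-1.55, adjusted p = 0.095) or with 2 groups only (adjusted p = 0.0559). Without a trend CYP26B1 (-0.53, adjusted p = 0.058) and RARG (0.30, adjusted p = 0.0721) were not called either, which left 2 falls, and the cause was not tested. The median-of-ratios factor was 1.0044 in every library, so this scaling kept the libraries' relation to each other as deposited and is no separate check.

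A pairing by replicate number was not seen: residual correlations were -0.12 to 0.08 for equal numbers and -0.14 to 0.12 for unequal ones, and 2 of 9 libraries were closest to one of their own number. With a replicate block 1053 genes were higher and 780 lower with deltaNp63alpha, 3121 and 2818 with deltaNp63beta and 2435 and 2148 between the isoforms, and the calls among the 10 genes stayed at 3 and 1, 4 and 4, and 0 and 1. With the block SCARB1, CREBBP and THBD lost their call with deltaNp63alpha and RBP4 with deltaNp63beta. The other named pathway genes were followed where called, ADH1B included, and TP63 in every comparison, counted once per setting that tested the gene. Of these results, 489 held and 19 lost their call under settings other than leaving out a library. When a library was left out, 416 held and 37 lost their call, with 0 reversed in both. For TP63 between the isoforms, which was not called, held means that it stayed so. The totals are a description only, since they hold ADH1B, whose calls are not read as a result, and TP63, the gene of the constructs. Differences of other genes that were not called were left out, so the 0 reversed does not speak for them. Among the tested genes of the 10, followed in every comparison, 7 results reversed when a library was left out and 1 under other settings.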
